A study of Caenorhabditis elegans with 2 samples.

Results

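The chaperone genes of Caenorhabditis elegans were taken as every protein-coding gene in the Ensembl WBcel235 annotation whose symbol begins with hsp-, dnj- or cct- and a digit, with daf-21 added. This gave 59 of 19985 protein-coding genes, of which 22 are hsp, 29 dnj and 8 cct. The gene once called daf-21 appears as hsp-90. The measurement was ChIP-seq of the zinc finger protein LIR-3, a relative of the epidermal regulator LIN-26, in whole hermaphrodite L4 larvae of strain OP312. The strain carries unc-119(ed3) III and the transgene wgIs312, from which LIR-3 is expressed with a GFP-FLAG tag at its C-terminus. Worms were grown for 48 hours after synchronization by starvation of bleached embryos at L1, and anti-GFP antibody was used for the precipitation, although the antibody field of the labels reads lir-3. There was 1 group of 2 biological replicates, and the labels do not say whether these came from separate cultures. No untagged or mock precipitation was analysed here, the whole animal was used so that no tissue can be assigned to a peak, and the read depth behind the lists is unknown.

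Chaperones bind unfolded or partly folded proteins and keep them from aggregating. Hsp70 proteins bind and release their clients in a cycle driven by ATP, which J-domain proteins, encoded by the dnj genes, start and which nucleotide exchange factors such as Hsp110 reset. The cct genes encode subunits of the cytosolic chaperonin, a double ring that folds actin and tubulin. Some chaperones are made in every growing cell, and others, such as the small heat shock proteins of the hsp-16 group, are made mainly after heat.

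For each gene a peak was counted when its summit, the point of highest enrichment, lay no more than 500 bp before or 200 bp after the annotated gene start. IDR, the irreproducible discovery rate, weighs how far peak ranks hold across replicates, and the IDR list held 552 peaks. The relaxed lists from which it was drawn were longer, with 17311 peaks in replicate 1, 20601 in replicate 2 and 20360 in the pool of both. The submitters describe the pooled list as peaks and background meant as input for IDR. A summit in it is therefore not by itself a called site. The 552 IDR peaks were the 552 pooled peaks of highest signal, so a peak in the list can still differ widely in rank between the replicates. Signal is the authors' own score for each peak, whose scale the labels do not give, so values are set side by side only within a list, and the rank counts from 1 at the highest signal.

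Of the 59 chaperone genes, 7 had an IDR summit at the start (11.9%, exact 95% interval 4.91 to 22.9), against 1.04% of all protein-coding genes. They were hsp-3, hsp-110, cct-1, cct-8, dnj-9, dnj-13 and dnj-19. The 1.04% stands for 207 of 19985 genes. Of the 207, 195 lie on nuclear chromosomes, as all members do, and the rest lie in the mitochondrial genome. The intervals here and below are binomial over genes, cover counting error only, and treat genes as independent, which genes that share a peak are not. By family, 2 of 22 hsp genes (9.09%, 1.12 to 29.2), 3 of 29 dnj genes (10.3%, 2.19 to 27.4) and 2 of 8 cct genes (25%, 3.19 to 65.1) had such a summit. The 3 intervals are wide with so few genes and overlap, and a difference between families was not tested.

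The constitutive list was written from general knowledge of the genes, and both it and the stress-induced list with earlier results of these data known. The shares by regulation therefore describe these lists and are no independent evidence. By regulation, 6 of 18 chaperones listed as constitutive had an IDR summit (33.3%, 13.3 to 59.0), against 1.04% of all protein-coding genes. Of 12 induced by heat, mitochondrial stress or stress of the endoplasmic reticulum (ER), 0 had one, which allows a share of up to 26.5% and takes in the 1.04% of all protein-coding genes. These 2 intervals overlap between 13.3% and 26.5%, and the difference was not tested. The 7 heat-induced genes alone, the 6 hsp-16 genes and hsp-70, had 0, which allows up to 41% and takes in the 1.04% background. Of the 29 members in neither list, dnj-9 was the single gene with an IDR summit (3.45%, 0.0873 to 17.8).

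**Figure D1:**
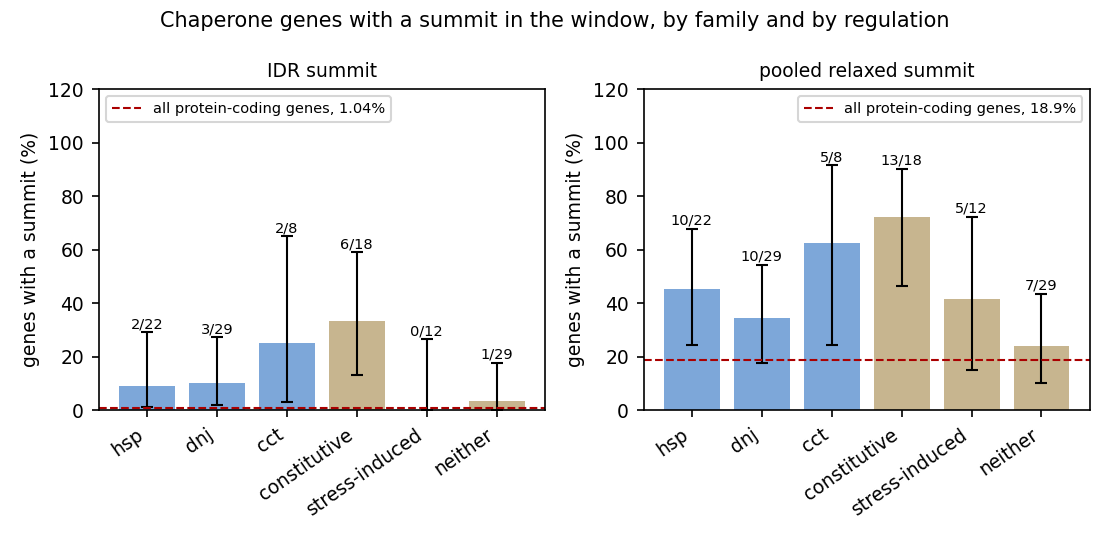
Share of chaperone genes with a summit from 500 bp upstream to 200 bp downstream of the gene start, in percent, in the IDR list (left) and the pooled relaxed list (right). Bars are families (blue) and regulation classes (tan), error bars are exact 95% binomial intervals over genes, labels give genes with a summit over genes in the class, and the dashed line is the share of all protein-coding genes (1.04% and 18.9%). Constitutive genes stand highest in both panels and the stress-induced class has no IDR summit.

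In the longer, relaxed pooled list the share of members was a smaller multiple of the background than in the IDR list. The gap in percentage points was wider. The pooled list reached 25 of 59 members (42.4%, 29.6 to 55.9), against 18.9% of all protein-coding genes. Pooled summits lay at 13 of 18 constitutive genes (72.2%, 46.5 to 90.3) and 5 of 12 stress-induced genes (41.7%, 15.2 to 72.3). Those 5 were dnj-10, hsp-6, hsp-16.2, hsp-16.41 and hsp-60, and the highest of them, dnj-10, ranked 3509 of 20360. The authors' −log10 q-value was 0.53 at dnj-10, 0.24 at hsp-6, 0.16 at hsp-16.2 and hsp-16.41, and 0.06 at hsp-60. Over the 13 constitutive genes it ran from 3.18, at hsp-3 among others, to 0.05 at hsp-12.2. By family the pooled list reached 10 of 22 hsp, 10 of 29 dnj and 5 of 8 cct genes.

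Read down the pooled list, the constitutive genes come in early. Its 276 strongest peaks held 2 members, hsp-3 and hsp-110, against 0.46% of protein-coding genes. Its 1104 strongest held 10 members (16.9%, background 2.1%), adding hsp-1, dnj-14 and dnj-28. Its 5520 strongest held 16 members, of which 10 were constitutive and 1 stress-induced, against 7.32% of protein-coding genes.

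**Figure D2:**
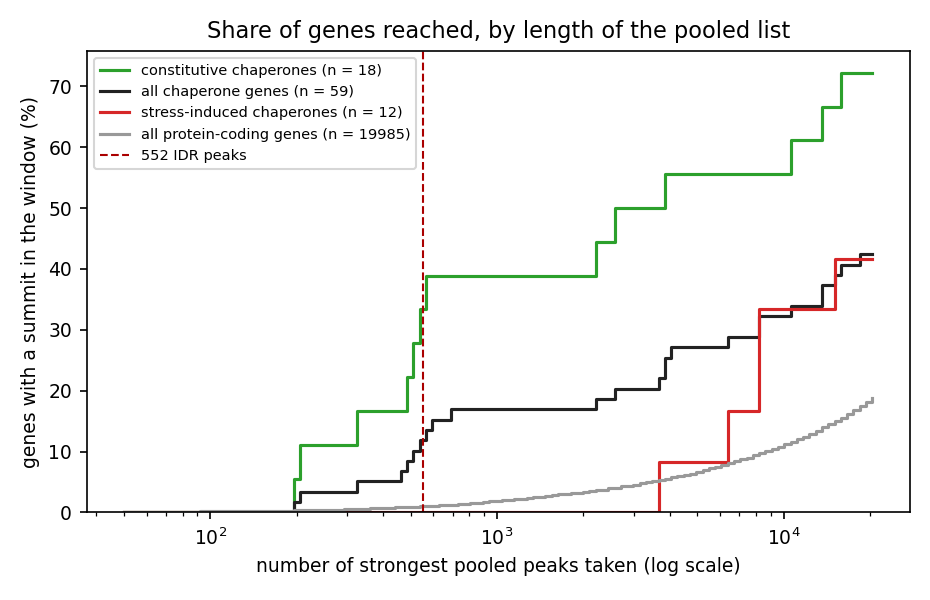
Percent of genes with a summit at the start (vertical axis) as more of the strongest pooled peaks are taken (horizontal axis, log scale), for constitutive chaperones, all chaperone genes, stress-induced chaperones and all protein-coding genes. The constitutive line climbs near the 552 IDR peaks (dashed), while the stress-induced line leaves 0 at rank 3509, where dnj-10 comes in.

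The replicates were also read alone, each through as many of its own strongest peaks as there are IDR peaks. Replicate 1 gave 5 members, cct-1, cct-8, dnj-13, hsp-110 and hsp-3 (background 0.961%), and replicate 2 gave 7, cct-8, dnj-9, dnj-14, dnj-19, hsp-1, hsp-110 and hsp-3 (background 1.02%). In both replicates at once 3 members passed, cct-8, hsp-110 and hsp-3, against 0.645% of protein-coding genes. None of the 12 stress-induced genes passed in either replicate.

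The strongest chaperone peak inside a window lay at hsp-3, which encodes an Hsp70 of the ER lumen (BiP). The peak, at chrX:6091994-6092409, had a pooled signal of 139.1 and rank 194, with 94.4 (rank 115) in replicate 1 and 46.7 (rank 497) in replicate 2. Its summit lay 78 bp upstream of the start in the pooled list and 76 bp in replicate 1, but 3 bp upstream in replicate 2. No other gene start lay within the window around this summit, which is intergenic. It was the single IDR summit among the members that lay less than 200 bp from its gene start. The 101 bases centred on it are shown because they hold 8 bases, TGCGTCTC in capitals, that also occur in the hsp-16 promoters described further on.
hsp-3 (chrX:6092152-6092252, minus strand): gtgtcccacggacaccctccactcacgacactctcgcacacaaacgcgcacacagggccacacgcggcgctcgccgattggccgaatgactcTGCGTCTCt

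Its paralogue hsp-4, which encodes the BiP form induced by ER stress, had no summit in the pooled list or in either replicate. Both promoters hold TGACGTG, the core of the unfolded protein response element, where the ER stress factor XBP-1 binds. That core was in 8 of 59 member windows (13.6%) and in 6.15% of the windows of all protein-coding genes.

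The cytosolic Hsp70 machine was represented by hsp-110, the nucleotide exchange factor, with a peak at chrIII:8446948-8447363. Its pooled signal was 135.8 (rank 206), with 66.4 (rank 257) in replicate 1 and 68.2 (rank 204) in replicate 2. The 2 replicate ranks lay within a factor of 1.26, the closest of the 7 after cct-8 at 1.14. The pooled summit lay 247 bp upstream of hsp-110 and nearer, at 197 bp, to the start of rpn-3. That is a proteasome subunit gene on the opposite strand. In replicate 1 the summit lay 262 bp upstream of hsp-110. In replicate 2 it lay 157 bp upstream, nearer to hsp-110 than to rpn-3. The peak therefore cannot be given to either gene alone.

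hsp-1, the constitutive cytosolic Hsp70, fell just outside the IDR list. Its peak at chrIV:17278373-17278788 ranked 553, the next below the 552 IDR peaks, with a signal of 88.82 against 88.94 for the last IDR peak. In replicate 1 its signal was 40.4 (rank 974) and in replicate 2 it was 62.0 (rank 248). Its summit lay 378 bp upstream in the pooled list and 307 bp upstream in replicate 2, in intergenic sequence. No other protein-coding start lay within the window.

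Of the J-domain proteins that work with these Hsp70s, the class B gene dnj-13 and the class A gene dnj-19 had IDR summits. At dnj-13 the peak (chrII:11545259-11545674) had a pooled signal of 93.8 (rank 487), 62.3 (rank 309) in replicate 1 and 34.4 (rank 1135) in replicate 2. Its summit, 234 bp upstream, lies in an intron of dhgd-1 and in an exon of the noncoding gene F54D5.22. At dnj-19 the peak (chrV:5505029-5505444) had a pooled signal of 90.1 (rank 532), 42.6 (rank 835) and 49.2 (rank 428). The dnj-19 summit lay 380 bp upstream of dnj-19 and 16 bp upstream of nhr-47, a nuclear receptor gene on the opposite strand. The class A gene dnj-12 had a weaker pooled peak of 48.5 (rank 2538), with 46.4 (rank 650) and 32.6 (rank 1312). Its replicate summits were different places, 428 bp upstream in replicate 1 and 118 bp upstream in replicate 2.

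The summit sequences of this machine are set out to show where pairs of heat shock element units, the letters that heat shock factor binds as repeats, lie. Capitals mark GAANNTTC or TTCNNGAA, TGNGTCTC, and at hsp-1 also GAGAGAGA, read here as its complement. The dnj-19 stretch is shorter because it was trimmed at an untranslated region. The dnj-13 stretch has no capitals because it holds no whole match. A GAANNTTC centred 51 bp from the dnj-13 summit is cut off at its right end.
hsp-110 (chrIII:8447106-8447206, minus strand): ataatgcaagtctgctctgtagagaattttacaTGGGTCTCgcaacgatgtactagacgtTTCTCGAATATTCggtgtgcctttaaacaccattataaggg
hsp-1 (chrIV:17278531-17278631, plus strand): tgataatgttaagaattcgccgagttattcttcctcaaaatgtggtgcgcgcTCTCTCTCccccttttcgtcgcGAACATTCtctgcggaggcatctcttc
dnj-13 (chrII:11545417-11545517, plus strand): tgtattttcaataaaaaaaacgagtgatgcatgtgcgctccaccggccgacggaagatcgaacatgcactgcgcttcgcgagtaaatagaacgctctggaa
dnj-19 (chrV:5505187-5505252, minus strand): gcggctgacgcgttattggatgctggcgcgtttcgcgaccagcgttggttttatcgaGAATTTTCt

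hsp-90 and hsp-60 were called without an IDR summit by the rule, and yet the IDR list held a peak close to each that ranked above all 7 peaks in the windows. For hsp-90, the cytosolic Hsp90 that holds kinases and receptors, Ensembl lists 2 transcript starts 1242 bp apart, and the gene record takes the upstream one. A peak at chrV:14685549-14685964 had a pooled signal of 166.4 (rank 121), with 92.8 (rank 119) in replicate 1 and 69.3 (rank 193) in replicate 2. Its summit was 403 bp upstream of the downstream transcript start and 839 bp past the record start, in an intron of the longer transcript, and 272 bp upstream of C47E8.4 on the opposite strand. At the record start itself the pooled signal was 43.3 (rank 3667). With any annotated transcript start allowed, hsp-90 joined the list, giving 8 of 59 members against 1.12% of protein-coding genes.

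hsp-60 encodes the mitochondrial chaperonin and rises in mitochondrial stress. The IDR peak at chrIII:1618930-1619345 had a pooled signal of 164.4 (rank 125), 81.4 (rank 154) in replicate 1 and 81.5 (rank 126) in replicate 2. Its summit was 604 bp upstream of hsp-60, outside the window by 104 bp, and 209 bp upstream of Y22D7AL.10 on the opposite strand. RefSeq describes the product of Y22D7AL.10 as a small mitochondrial heat shock protein. The gene is not a member and is not among the small heat shock protein genes counted below. Inside the hsp-60 window the pooled signal was 27.2 (rank 14558), 107 bp downstream of the start. With a window reaching 1000 bp upstream, 1 of 12 stress-induced genes, hsp-60, had an IDR summit, against 1.47% of protein-coding genes. The other 50 members without an IDR summit had none within 1000 bp of the start.

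The sequences under the summits at these 2 genes are shown because they are the strongest IDR peaks near any member. Capitals mark GAANNTTC at hsp-90, and the hsp-60 stretch holds none of the letters searched.
hsp-90 (chrV:14685707-14685807, plus strand): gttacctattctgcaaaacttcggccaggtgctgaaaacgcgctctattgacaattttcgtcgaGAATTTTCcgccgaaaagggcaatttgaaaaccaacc
hsp-60 (chrIII:1619088-1619188, plus strand): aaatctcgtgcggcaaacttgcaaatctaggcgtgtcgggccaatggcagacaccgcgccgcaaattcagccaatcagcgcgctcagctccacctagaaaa

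**Figure D3:**
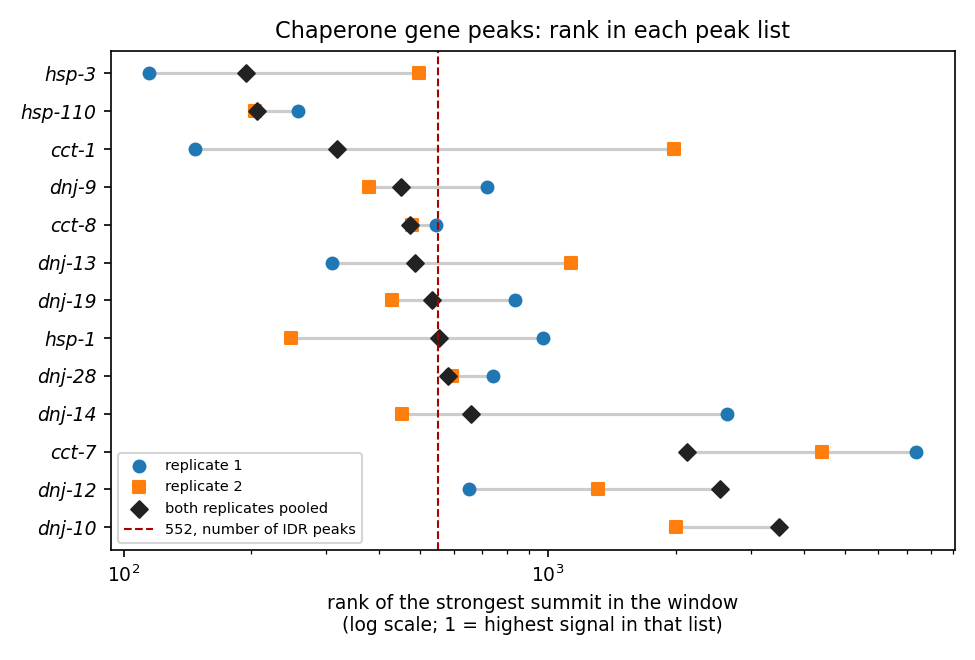
Rank of the strongest summit in the window (horizontal axis, log scale, 1 is the highest signal in that list) for the 13 chaperone genes that had an IDR summit, were among the strongest peaks of a replicate, or ranked next in the pooled list. Circles are replicate 1, squares replicate 2, diamonds the pooled list, and the dashed line marks 552. hsp-110 and cct-8 keep their points close together, while cct-1 spans rank 147 to rank 1978 and dnj-14 spans 452 to 2640.

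Among the 8 cytosolic chaperonin genes the peaks were uneven, although their products sit in a single complex. cct-1 had an IDR peak at chrII:8185011-8185426 with a pooled signal of 113.2 (rank 318). It was high in replicate 1 at 82.8 (rank 147) and low in replicate 2 at 28.6 (rank 1978), so its rank changed by a factor of 13.5 although the 2 replicate summits lay 4 bp apart. A rank change over a factor of 5 was seen in 1 of the 7 members and in 7 of 202 protein-coding genes with an IDR summit found in both replicates. The cct-1 summit lay 224 bp upstream, and 196 bp from mig-5, the start of a dishevelled homologue on the opposite strand.

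cct-8 was even in the replicates. Its peak at chrIV:1094149-1094564 had a pooled signal of 94.9 (rank 472), with 50 (rank 545) and 47.3 (rank 477). The summit lay 437 bp upstream of cct-8 and 184 bp from the opposite-strand gene Y55F3AR.2, so the neighbour is the nearer start here too. Of the others, cct-7 had a pooled signal of 51.1 (rank 2124), cct-6 of 30.9 (rank 10416) and cct-4 of 28.3 (rank 13245). cct-2 had a summit in replicate 1 only, at rank 17165, and cct-3 and cct-5 had none in any list. The chaperonin genes therefore ran from the IDR list to no summit.

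The summit stretches of cct-1 and cct-8 follow, with TGNGTCTC and GAANNTTC in capitals at cct-1 and none of the searched letters at cct-8.
cct-1 (chrII:8185169-8185269, plus strand): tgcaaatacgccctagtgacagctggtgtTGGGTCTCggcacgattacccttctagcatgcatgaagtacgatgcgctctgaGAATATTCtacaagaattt
cct-8 (chrIV:1094307-1094407, minus strand): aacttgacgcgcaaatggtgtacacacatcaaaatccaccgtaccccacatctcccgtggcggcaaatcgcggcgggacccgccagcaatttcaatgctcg

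Among the remaining J-domain genes, dnj-9 had an IDR peak with no other gene start in its window. The peak at chrII:4851617-4852032 had a pooled signal of 97.1 (rank 451), 44.8 (rank 719) in replicate 1 and 51.5 (rank 378) in replicate 2. The summit lay 231 bp upstream, and the replicate summits were 9 bp apart. Its summit stretch is shown with the capitals marking a match to the A box of tRNA promoters, which 15.8% of IDR peaks at protein-coding starts also held.
dnj-9 (chrII:4851775-4851875, plus strand): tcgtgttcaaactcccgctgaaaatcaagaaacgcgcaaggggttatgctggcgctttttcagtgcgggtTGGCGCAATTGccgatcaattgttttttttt

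dnj-14, which encodes the synaptic cysteine string protein, reached a pooled signal of 81.2 (rank 660). It was low in replicate 1 at 29.6 (rank 2640) and high in replicate 2 at 48.1 (rank 452), and its summit, 379 bp upstream, was 152 bp from glit-1 on the opposite strand. dnj-28 had a pooled signal of 86.3 (rank 580), with 44.2 (rank 743) and 43.7 (rank 593). Its window held 2 summits in the pooled list and 2 in each replicate. The strongest lay 353 bp upstream in replicate 1 and 147 bp upstream in replicate 2. dnj-10, a J-domain protein of mitochondria, had a pooled signal of 43.9 (rank 3509), no summit in replicate 1 and 28.4 (rank 2001) in replicate 2. The authors' −log10 q-value was 3.18 at all 7 IDR members and at hsp-1, dnj-28 and dnj-14, and dropped to 0.93 at cct-7 and 0.53 at dnj-10. Of the 29 dnj genes, 10 had a pooled summit (34.5%), against 18.9% of all protein-coding genes.

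**Figure D4:**
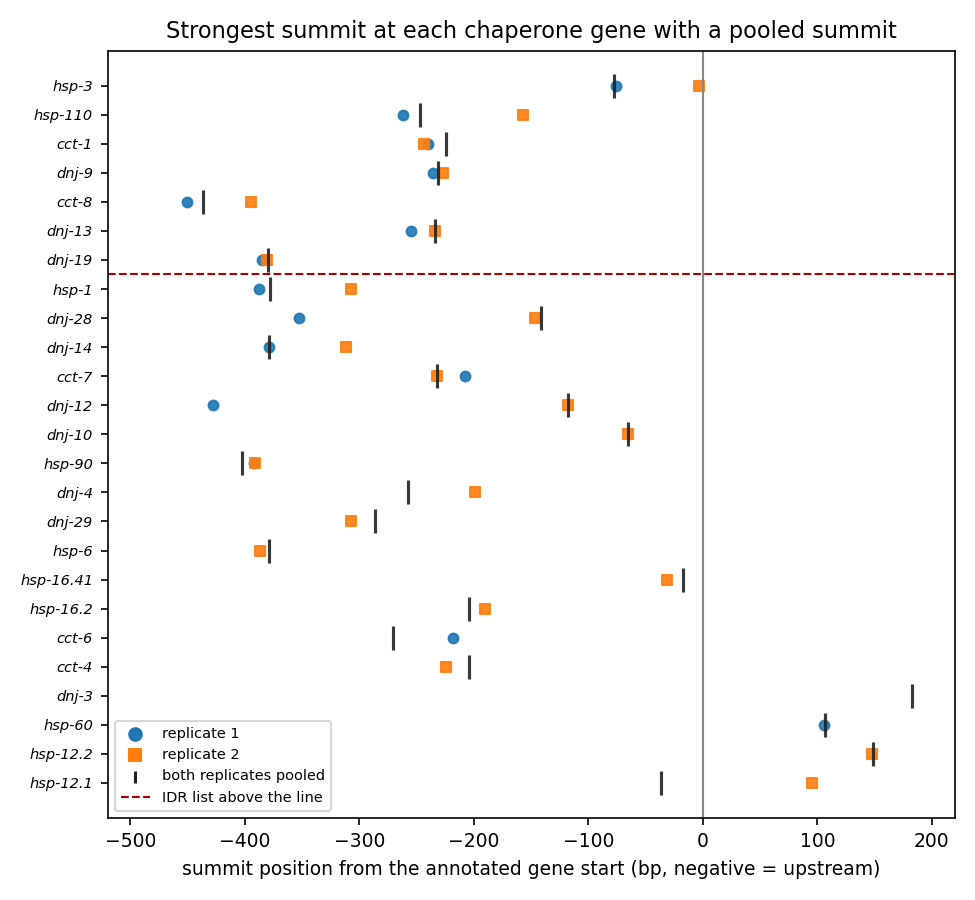
Position of the strongest summit relative to the annotated gene start (bp, negative is upstream) for the 25 chaperone genes with a pooled summit, ordered by pooled rank with the strongest at the top. Circles are replicate 1, squares replicate 2, ticks the pooled list, and genes above the dashed line have an IDR summit. All 7 IDR summits are upstream, and several weak genes have no replicate 1 point.

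By class, IDR summits were at 2 of 6 Hsp70 and Hsp110 genes, 0 of 3 Hsp90 and Hsp60 genes and 0 of 13 small heat shock protein genes, against 1.04% of all protein-coding genes, so the counts of 0 do not set the last 2 classes apart from the background. The pooled list reached 4, 2 and 4 of these, against 18.9%. hsp-6, the mitochondrial Hsp70, had a pooled signal of 36.6 (rank 6266), none in replicate 1 and 22.7 in replicate 2. hsp-70, a heat-induced Hsp70, and the small heat shock gene hsp-12.6 had no summit in any list.

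The heat-induced hsp-16 genes lie as divergent pairs on chromosome V. hsp-16.2 and hsp-16.41 share a single pooled summit with a signal of 33.6 (rank 8163) and a −log10 q-value of 0.16. It was absent from replicate 1 and at rank 11893 in replicate 2. The summit lay 204 bp upstream of hsp-16.2 and 17 bp upstream of hsp-16.41, so these 2 genes make 1 peak and not 2. hsp-16.1, hsp-16.11, hsp-16.48 and hsp-16.49 had no summit in any list. Reads from within identical copies cannot be told apart, and the windows of hsp-16.48 and hsp-16.49 agree at 701 of 701 bases and those of hsp-16.1 and hsp-16.11 at 663 of 663 bases at a shift of 38 bp. How the authors treated reads that map to more than 1 place is not given in the sources used here.

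The promoter shared by hsp-16.2 and hsp-16.41 is printed from start to start as the counterpart of the summit stretches above. Capitals mark TTCNNGAA and GAANNTTC, which overlap at the left end, and TGNGTCTC with its complement.
hsp-16.2 and hsp-16.41 (chrV:1804958-1805177, plus strand): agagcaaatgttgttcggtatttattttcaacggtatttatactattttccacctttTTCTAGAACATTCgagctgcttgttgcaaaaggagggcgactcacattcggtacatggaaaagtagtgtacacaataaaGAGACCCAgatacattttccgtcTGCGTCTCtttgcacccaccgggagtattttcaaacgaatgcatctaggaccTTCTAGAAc

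The motif letters were searched on both strands of the 701-bp window of each gene, and a match is a description of letters and not a site. TTCNNGAA was in 36 of 59 member windows (61.0%) against 39.1% of 19973 protein-coding windows, and GAANNTTC in 57.6% against 38.8%. The letters of the 2 can overlap. Both were present in 27 members (45.8%) against 17.3% of all. They were in 7 of 7 heat-induced genes, 10 of 12 stress-induced genes, 9 of 18 constitutive genes and 4 of the 7 members with an IDR summit. The 7 heat-induced windows are not separate, since divergent hsp-16 genes read a shared promoter and 1 pair copies another, and the difference between classes was not tested.

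TGCGTCTC was in 7 members, the 6 hsp-16 genes and hsp-3 (11.9% against 5.58% of all windows and 17.9% of the 195 nuclear protein-coding genes with an IDR summit). The 6 hsp-16 genes hold 3 matches in the genome, each shared by a divergent pair, and 1 pair copies another. TGNGTCTC, a looser form that includes it and was chosen after the windows were read, was in 19 members (32.2% against 11.4%). Within 50 bp of the summit it was in 3 of 7 member IDR peaks, at hsp-3, hsp-110 and cct-1. The share was 12.5% of 152 IDR peaks at protein-coding starts and 4.05% of 3480 pooled peaks below the IDR list at such starts. Because these letters were picked from the windows, the count of 3 is no independent evidence. GAANNTTC was within 50 bp of the summit at cct-1, hsp-110 and dnj-19, against 5.26% and 5.11% of the same peak sets. TTCNNGAA was there at hsp-110 alone, against 3.95% and 5.23%.

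GAGAGAGA was in 6.78% of member windows and 5.86% of all windows. The A box was in 39.0% and 35.6%, and the loosened B box, GTTCNANNC, in 10.2% and 21.5%. These last 2 are letters of tRNA gene promoters. Within 50 bp of the summit the B box was at 0 of 7 member IDR peaks and at 9.21% of IDR peaks at protein-coding starts. The median GC content of the 101-bp summit windows was 47.5% at the 7 members and 49.5% at IDR peaks of protein-coding starts, against 39.6% at the pooled peaks below the IDR list.

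**Figure D5:**
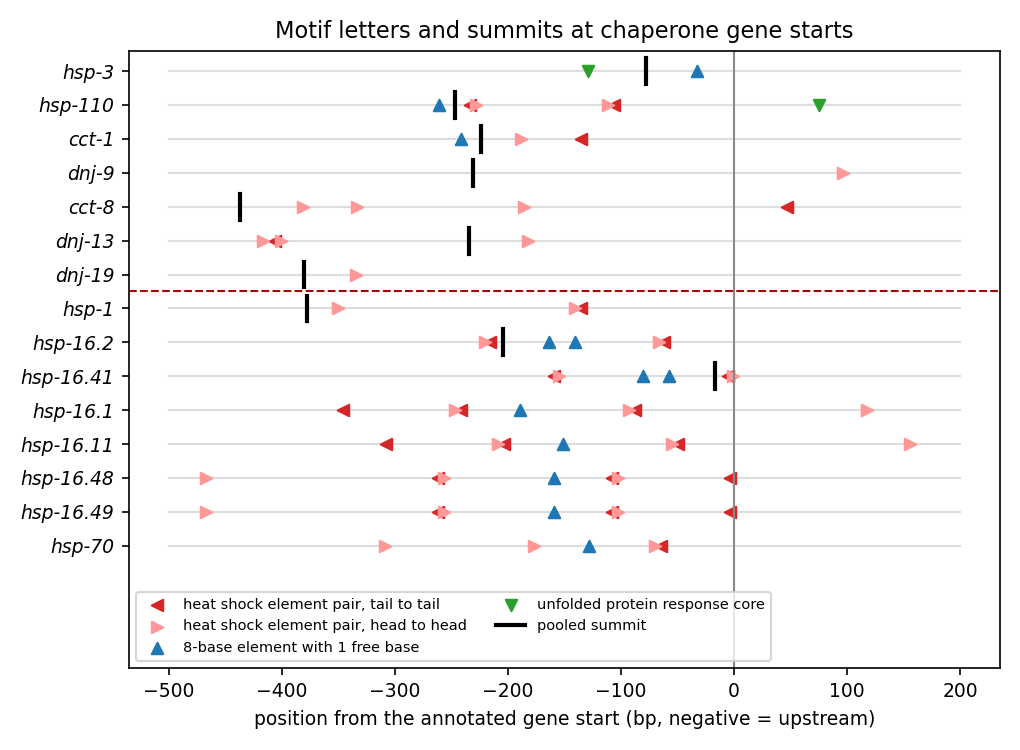
Motif letters and pooled summits by position from the annotated gene start (bp, negative is upstream) at the 7 members with an IDR summit (above the dashed line), hsp-1 and the 7 heat-induced genes. Red and pink triangles are heat shock element pairs (TTCNNGAA and GAANNTTC), blue the looser 8-base element TGNGTCTC, green the TGACGTG core, and black bars pooled summits. All 7 heat-induced genes carry red, pink and blue marks, while only hsp-16.2 and hsp-16.41 among them have a summit.

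All 7 IDR summits were upstream, at a median of 234 bp, against 94.9% upstream and a median of 229 bp over 195 nuclear protein-coding genes with an IDR summit. A protein-coding start on the opposite strand lay in the window at 4 of 7 members (57.1%) and at 45.1% of the 195. By the pooled summit it was the nearer start at those 4 members and at 22.6% of the 195. By the replicate 2 summit it was not the nearer start at hsp-110. Of the 7 summits, 6 lay over 200 bp upstream (85.7%), against 58.5% of the 195. None of the 7 windows held a start of a tRNA, snoRNA, snRNA or miRNA gene, against 19% of the 195. The median pooled signal was 97.1 at the members and 114.7 over the 195. The replicate summits lay a median of 21 bp apart at members and 21.5 bp over 202 genes, and the ratio of replicate ranks had a median of 1.95 against 1.65. Over the 7, the replicate distance ran from 4 bp at cct-1 and dnj-19 to 105 bp at hsp-110.

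Genes that work beside the chaperones were read from a list of 37 co-chaperones, prefoldin subunits, ER and mitochondrial folding factors and stress regulators. This list too was chosen with earlier results of these data known. Its shares therefore describe the list and are no independent evidence. IDR summits lay at 4 of them (10.8%, 3.03 to 25.4), against the same 1.04% of all protein-coding genes. They were bag-1, a BAG nucleotide exchange factor for Hsp70, crt-1 and enpl-1, which encode the ER chaperones calreticulin and GRP94, and icd-1, a subunit of the nascent chain associated complex at the ribosome. bag-1 had a pooled signal of 158.0 (rank 132), 81.2 in replicate 1 and 71.9 in replicate 2, with the summit 173 bp upstream. That was higher than any of the 7 chaperone peaks in windows.

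crt-1 (chrV:6100591-6101006) had a pooled signal of 97.7, with 53.7 and 39.7 in the replicates. enpl-1 (chrIV:11118987-11119402) had 89.5, with 51.0 and 39.6, and icd-1 (chrII:6588912-6589327) had 92.3, with 37.5 and 48.7. The crt-1 summit lay in an exon of the noncoding gene Y38A10A.8. The icd-1 summit, 465 bp upstream of icd-1, lay in an exon of the noncoding gene C56C10.15. With each replicate read alone as above, 1 of the 37, bag-1, passed in both at once, against 0.645% of protein-coding genes. The pooled list reached 22 of the 37 (59.5%, 42.1 to 75.2), against 18.9% of all protein-coding genes, and hsf-1, which encodes heat shock factor, had no summit in any list.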

How the data were processed

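The chaperone genes and the constitutive, stress-induced and partner lists were chosen with earlier results of these data known. Peak lists in narrowPeak format on build ce11 were deposited, 1 per replicate, 1 for both replicates pooled and 1 after IDR, and the submitters' file listing names a control alignment as input. The peak caller and the aligner were not given in the sources used here. Column 7, the signal, is a score deposited by the authors, and column 9 is the −log10 of the q-value as the authors deposited it. The lists on ce10 were not used, since genes were taken on 1 build. 

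Summits were placed on Ensembl WBcel235 genes, whose coordinates are those of ce11, with Python 3.11.15, scipy 1.17.1, pandas 2.3.3 and numpy 2.4.6, and plots were drawn with matplotlib 3.10.9. The best summit in the window gave each gene's signal, and ranks are within a list. Shares have exact (Clopper-Pearson) 95% intervals. There is no p-value, because 1 group without read counts allows no test of a difference between samples. Sequence and product names came from RefSeq, WBcel235, and hsp-16.11 and hsp-16.49 carry RefSeq names. Coordinates count from 1. The placement was checked on simulated summits inside and outside the window, in 20 runs with genes drawn from the 19985. All 4000 of 4000 were rightly assigned or left out. This checks the window rule and not the reading of the deposited coordinates. The depth of each sample is unknown, so no precision from depth can be given.

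The genes named were all members with an IDR summit or among the strongest peaks of a replicate alone, the 6 next in the pooled list, and a list of well-known members, with partner genes only where they had an IDR summit, and hsf-1. Other genes appear where they share a window, and hsp-4, hsp-60 and hsp-90 were among the well-known members. Alternatives were the window, the start used, whole peaks, the list length, each replicate alone, and windows without small RNA starts. The number of sample columns of no known sample was 0.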

Additional observations from a re-analysis of the deposited data

How the results depend on the processing

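The count of 7 members stood against a background of 1.04% of protein-coding genes. It was 8 with a window of 1000 bp upstream (background 1.47%) or with whole peak intervals (1.26%), hsp-60 added. Any transcript start also gave 8 (1.12%), hsp-90 added. A window from 250 bp upstream to 100 bp downstream gave 5 (0.605%). Without windows that hold a small RNA start it was 7 (0.816%). That outcome was fixed in advance, because none of the 7 windows held such a start. Replicate 1 alone gave 5 (0.961%) and replicate 2 alone gave 7 (1.02%). The same backgrounds go with these settings in the family, regulation and partner counts of IDR summits below. The stronger 276 IDR peaks (background 0.46%) held 2 members (hsp-3 and hsp-110), 0 dnj, 0 cct and 2 constitutive genes and 1 partner. The dnj count of 3 was 1 to 3 with a replicate left out, and 5 in the 1104 strongest pooled peaks (chosen after seeing the data, background 2.1%). The cct count of 2 was 1 to 2 with a replicate left out and 1 in the shorter window. The stress-induced count of 0 was 1 with the 1000-bp window and with whole peaks. The 25 members with a pooled summit were 14 in the shorter window, against 10.8% of protein-coding genes. The partner count of 4 was 2 in the shorter window (background 0.605%) and 8 in the 1104 strongest peaks (2.1%). It was 2 without replicate 1 (1.02%) and 3 without replicate 2 (0.961%). Among motif counts, which had to stay within 1.5 times, and ranks of named genes, which had to stay within 1 SD of their own 2 replicate ranks, 74 values did so and 19 did not. Most of the 74 were ranks under the window, start, whole-peak and small RNA settings. There the same pooled summit stayed the strongest, so its rank was the same number. All rank changes came with a replicate left out, so the 74 is no measure of how stable ranks are between replicates. The window and list-length settings change which summits can be counted; with a replicate left out the list length is the same, and the cause of the change was not tested. No paired analysis was possible because there is 1 group. Depth and the effect of multiply mapped reads were not tested.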
